A study of Mus musculus with 6 samples.

Results

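Aminoacyl-tRNA synthetases attach each amino acid to its tRNA, and so supply the charged tRNAs that ribosomes use. The 36 synthetase genes described here were taken from the read count table by symbol alone, out of 23951 genes. Of these, 20 symbols are cytosolic enzymes and 16 symbols ending in 2 are their mitochondrial counterparts. The symbol rule uses no measured value, but the family was picked with the knockout against wild type results already known, so it was in effect selected on those expression differences, and its counts of calls are given as a description that supports nothing further. All 36 passed the filter on low counts.

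RNA was sequenced from haematopoietic stem cells (HSCs) of mouse fetal liver in 3 Uqcrfs1 knockout (KO, labelled RISP knockout) and 3 wild type (WT, labelled RISP wild type) libraries, all of strain C57BL/6. The product of Uqcrfs1, the Rieske iron-sulfur protein (RISP), carries electrons within complex III of the respiratory chain. The sources used here do not give the embryos' age, the driver of the deletion, the deleted stretch of the gene, or whether each library had its own embryo. A p-value here thus reflects library-to-library spread alone, and that spread may be technical.

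The cytosolic enzymes serve protein synthesis on cytosolic ribosomes, and the mitochondrial ones, also encoded in the nucleus, charge the tRNAs that translate the few proteins of mitochondrial DNA. Gars and Kars each encode both the cytosolic and the mitochondrial enzyme. Several cytosolic synthetase genes are known targets of ATF4, a transcription factor of the integrated stress response that binds composite C/EBP-ATF elements. Uncharged tRNA is sensed by the kinase GCN2, which phosphorylates eIF2 and so favours translation of Atf4 mRNA.

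Total counts were 12020128 to 14590844 per library in KO and 10191354 to 13189329 in WT, and 13083 to 13551 genes were detected per library. Uqcrfs1 stood at 4.33, 3.395 and 3.08 CPM in KO replicates 1 to 3, against 77.3, 123 and 60.99 CPM in WT replicates 1 to 3, which fits the label of each of the 6 libraries. CPM here are read counts scaled to library size with TMM factors. All 14 stem and progenitor markers examined had counts, with a summed level of 2408 to 2563 CPM in KO and 2738 to 3286 CPM in WT. Of these 14, 4 were lower, among them Kit, Cd34 and Hlf, and 0 higher, beside 4.99% lower and 6.41% higher of all genes tested. Markers of most other cells moved with the groups: summed levels were 84.3 to 165 CPM in KO against 290 to 578 CPM in WT for 13 erythroid markers, and 90.1 to 146 CPM against 197 to 1076 CPM for 11 macrophage and monocyte markers. They were 272 to 306 CPM in KO against 337 to 1165 CPM in WT for 8 endothelial markers, 238 to 248 CPM against 381 to 452 CPM for 10 granulocyte and mast cell markers, and 122 to 154 CPM against 214 to 235 CPM for 6 megakaryocyte markers. For 9 hepatoblast markers the groups overlapped, at 74.30 to 135.65 CPM in KO and 135.64 to 177 CPM in WT. Of those tested in edgeR, 4 of 10 erythroid, 1 of 10 macrophage, 1 of 8 hepatoblast and 1 of 8 endothelial markers were lower. So were 1 of 8 granulocyte and 3 of 6 megakaryocyte markers, and 1 granulocyte and 1 megakaryocyte marker were higher. The shares of all genes given above hold beside these counts too. DESeq2 called more of them lower: 5 erythroid, 3 macrophage, 4 endothelial and 2 granulocyte markers, with 1 hepatoblast and 3 megakaryocyte markers as before. Hba-a1, Hbb-b1 and Fcer1a are listed at 0 counts in all 6 libraries. For the globin gene Hbb-b1 the authors' RPKM are nevertheless 48.5, 9.415e-04 and 234 in KO replicates 1 to 3, against 373, 20.2 and 0.00120 in WT replicates 1 to 3. Its 0 in the count table thus does not show absence, and the erythroid CPM sums leave it out. WT replicate 3 held the highest macrophage and endothelial sums. Without it 11 cytosolic synthetases were called, but its omission does not remove the difference in other cells. WT replicates 1 and 2 still stood above every KO library in the erythroid sums, at 578 and 290 CPM. The same held in the macrophage sums, at 354 and 197 CPM, and in the endothelial sums, at 487 and 337 CPM. The part of these other cells in the synthetase levels was not tested.

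The start regions of 5 cytosolic synthetase genes that were higher in KO are shown first, because each holds the core of a composite C/EBP-ATF element, TGATGNAA, in the 300 bases from 250 before to 50 after the gene's start. The sequences are RefSeq's, on the GRCm38.p6 build, printed 5′ to 3′ in the direction of the gene, with each match in capitals. A match on the opposite strand shows as the reverse complement of the motif.
Aars chr8:111033592-111033891 (plus strand): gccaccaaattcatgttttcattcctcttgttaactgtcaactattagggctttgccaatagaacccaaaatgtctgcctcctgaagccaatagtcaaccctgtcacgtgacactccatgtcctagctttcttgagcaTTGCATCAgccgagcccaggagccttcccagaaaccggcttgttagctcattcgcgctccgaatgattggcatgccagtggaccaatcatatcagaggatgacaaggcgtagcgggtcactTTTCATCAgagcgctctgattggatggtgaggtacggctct
Gars chr6:55037751-55038050 (plus strand): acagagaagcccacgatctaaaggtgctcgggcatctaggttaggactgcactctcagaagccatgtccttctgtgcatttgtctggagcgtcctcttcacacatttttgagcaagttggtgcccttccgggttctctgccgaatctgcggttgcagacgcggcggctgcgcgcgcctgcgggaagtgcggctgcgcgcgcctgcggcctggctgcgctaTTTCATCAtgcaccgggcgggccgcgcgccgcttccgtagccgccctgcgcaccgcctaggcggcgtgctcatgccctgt
Iars chr13:49681880-49682179 (plus strand): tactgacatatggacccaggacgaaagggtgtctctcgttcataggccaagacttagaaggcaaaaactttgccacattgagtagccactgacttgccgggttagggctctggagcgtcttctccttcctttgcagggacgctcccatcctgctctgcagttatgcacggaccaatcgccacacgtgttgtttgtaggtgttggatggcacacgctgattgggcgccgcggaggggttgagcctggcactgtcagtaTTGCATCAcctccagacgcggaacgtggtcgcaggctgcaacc
Tars chr15:11399609-11399908 (minus strand): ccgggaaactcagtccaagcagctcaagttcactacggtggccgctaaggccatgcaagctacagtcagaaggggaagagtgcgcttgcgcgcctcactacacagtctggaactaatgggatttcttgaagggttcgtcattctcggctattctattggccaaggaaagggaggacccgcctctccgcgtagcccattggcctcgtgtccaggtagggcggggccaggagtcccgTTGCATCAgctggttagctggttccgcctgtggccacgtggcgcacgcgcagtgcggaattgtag
Yars chr4:129189653-129189952 (plus strand): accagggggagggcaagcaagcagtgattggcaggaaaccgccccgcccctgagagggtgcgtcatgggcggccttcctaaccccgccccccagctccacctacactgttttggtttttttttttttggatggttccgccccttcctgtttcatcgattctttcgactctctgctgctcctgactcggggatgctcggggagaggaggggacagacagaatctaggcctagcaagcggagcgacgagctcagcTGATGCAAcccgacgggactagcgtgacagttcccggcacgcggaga
In these windows Aars held a match at -112 to -105 and another at 10 to 17, counted from the start as 1 with no base 0. Gars held its match at -30 to -23, Iars at 8 to 15, Tars at -15 to -8 and Yars at 4 to 11. The motif was searched on both strands in every start region of the table, and 1304 of 32851 windows (3.97%) held it. The version TGATGCAA, which is part of TGATGNAA and so overlaps it, was in 294 windows (0.895%), among them the windows of Aars, Iars, Tars and Yars.

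Windows were used for 27 of the 36 synthetases. Any window on chromosome 18, where Hars and Hars2 lie, was left out for the synthetases, whether or not the gene rose in KO. Windows on chromosome 18 were kept in the search of all start regions. Which of the synthetases without a window lost it this way was not recorded. The counts below cover only the windows used. Among cytosolic genes that rose in KO, 5 of the 8 with a window held TGATGNAA, and Eprs, Mars and Sars did not. This leaves out Cars, Lars and Nars, which also rose but had no window used. Among the cytosolic genes that did not pass the test, 0 of 5 with a window held it, namely Dars, Farsa, Farsb, Kars and Qars. Of the mitochondrial genes, 0 of 14 with a window held it. A match is a description of these letters and not a bound site, and a window without one says nothing of sites elsewhere, such as in introns. The other 9 synthetases are named only: Cars, Hars, Lars, Nars, Rars, Vars, Wars, Hars2 and Pars2.

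Of the 20 cytosolic synthetases, 11 rose in KO and 0 fell at an adjusted p under 0.05 (edgeR, Benjamini-Hochberg over 12204 genes). At an unadjusted p under 0.05 there were 13 higher and 0 lower, and DESeq2 called 12 higher and 0 lower. Of all genes tested, 6.41% were higher, 4.99% were lower and 11.4% passed in either direction. The 11 were Cars, Aars, Yars, Lars, Gars, Eprs, Nars, Sars, Tars, Mars and Iars, with log2 fold changes of 0.91 to 1.87, or 1.88-fold to 3.65-fold. The median log2 fold change of the 20 was 0.91, beside -0.02 for all genes tested. In such bulk libraries, more cells with a transcript and more transcript per cell cannot be told apart.

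Cars, the cysteinyl-tRNA synthetase gene, changed most. It had 110.0, 130.1 and 139 CPM in KO replicates 1 to 3, against 32.5, 37.2 and 34.1 CPM in WT replicates 1 to 3. The lowest KO library lay well above the highest WT library. Its log2 fold change was 1.87 ± 0.17 (standard error, SE; edgeR, adjusted p = 3.31e-07). Aars, the alanyl enzyme, had 248, 281 and 271 CPM in KO against 92.01, 121 and 99.4 CPM in WT, a log2 fold change (± SE) of 1.36 ± 0.13. Yars, the tyrosyl enzyme, had 150.2, 173 and 140.5 CPM in KO against 64.8, 69.2 and 59.8 CPM in WT, a log2 fold change (± SE) of 1.26 ± 0.15. In both genes the groups were apart, and each KO library was above each WT library (edgeR, adjusted p = 7.03e-07 for Aars and 8.76e-06 for Yars).

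**Figure D1:**
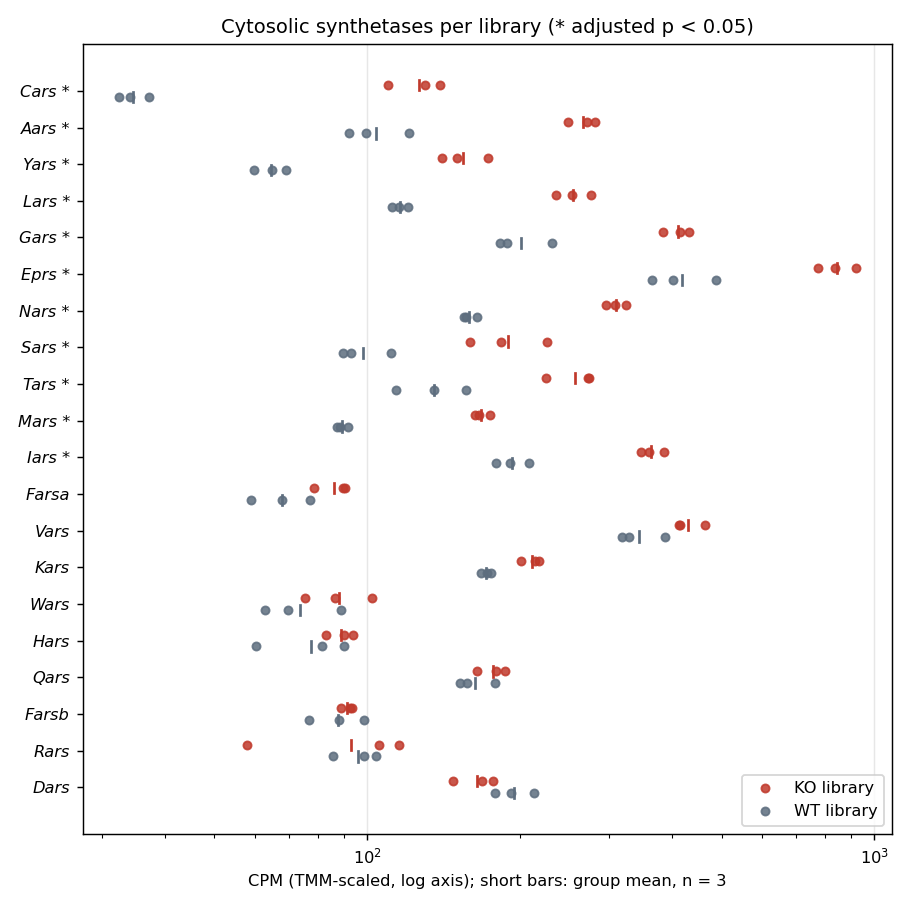
CPM (log axis) of the 20 cytosolic synthetases in each library, with KO points above WT points in each row and short bars at the group means of 3 libraries. Rows are ordered by log2 fold change, stars mark an adjusted p under 0.05, and the 11 starred genes at the top show no overlap between KO and WT.

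Eprs, which encodes one protein that charges both glutamate and proline tRNAs, was the cytosolic synthetase with the highest RPKM in KO. It had 838, 919 and 775 CPM in KO against 364, 488 and 400.2 CPM in WT, a log2 fold change (± SE) of 1.02 ± 0.11 (edgeR, adjusted p = 5.48e-06). Gars, the glycyl enzyme of both compartments, had 413, 432 and 383 CPM in KO against 183, 231 and 189 CPM in WT, a log2 fold change (± SE) of 1.03 ± 0.12 (edgeR, adjusted p = 6.23e-06). The KO libraries of both genes were clear of the WT libraries. Lars, the leucyl enzyme that is also known as a leucine sensor for mTORC1, had 276, 253 and 236 CPM in KO against 112, 121 and 115 CPM in WT, a log2 fold change (± SE) of 1.14 ± 0.12.

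Nars, the asparaginyl enzyme, had 296, 309 and 324 CPM in KO against 157, 165 and 156 CPM in WT, a log2 fold change (± SE) of 0.96 ± 0.11. Iars, the isoleucyl enzyme, had 346, 384 and 359 CPM in KO against 208, 179.6 and 191 CPM in WT, a log2 fold change (± SE) of 0.91 ± 0.11. Both showed a narrow spread in each group. Sars, the seryl enzyme, had 183, 227 and 159.6 CPM in KO against 89.8, 112 and 93.1 CPM in WT, and Tars, the threonyl enzyme, had 274, 272 and 225 CPM in KO against 114, 157 and 136 CPM in WT. Their log2 fold changes were 0.95 ± 0.15 (SE) and 0.93 ± 0.13 (SE), and the groups did not overlap in either.

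Mars, the methionyl enzyme that also charges the initiator tRNA, had 175, 166 and 163 CPM in KO against 87.2, 88.3 and 91.9 CPM in WT, a log2 fold change (± SE) of 0.91 ± 0.13 (edgeR, adjusted p = 9.10e-05). In the RefSeq annotation Mars overlaps Ddit3, the gene of the stress factor CHOP, which rose to 28.3 ± 1.41 CPM in KO, against 5.71 ± 2.81 CPM in WT (SD, n = 3 each). Aars overlaps Ddx19b. The sources used here give no strand setting for the counting, so reads of overlapping genes cannot be told apart. In all, 8 of the 36 synthetases overlap another coding gene.

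The other 9 cytosolic synthetases stood apart from these 11 in the size of their differences, with log2 fold changes of -0.24 to 0.34. The gap ran between Farsa at 0.34 and Iars at 0.91. Nearest to the threshold was Vars, the valyl enzyme, with 413, 413 and 463 CPM in KO against 328, 386 and 318 CPM in WT. Its groups did not overlap, at a log2 fold change (± SE) of 0.32 ± 0.11 (edgeR, adjusted p = 0.0626). It passed in 3 of 16 alternative settings: without WT replicate 2 (edgeR, adjusted p = 0.0300), without a filter (adjusted p = 0.0431) and with DESeq2 (adjusted p = 0.0257). In the other 13 it did not: omitting 1 library gave an adjusted p as high as 0.229 (KO replicate 3), and it was 0.836 with offsets for length and GC content, where its log2 fold change stood at 0.05. Kars, the lysyl enzyme of both compartments, had 214, 201 and 218 CPM in KO against 176, 167 and 172 CPM in WT, at 0.30 ± 0.11 (SE; edgeR, adjusted p = 0.0994). Its KO values were also all above its WT values, as were those of Farsa, the catalytic subunit of the phenylalanyl enzyme, at 89.6, 90.3 and 78.6 CPM in KO against 59.03, 77.2 and 68.00 CPM in WT.

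Farsb, the other subunit of that enzyme, had 92.4, 93.2 and 88.7 CPM in KO against 87.9, 98.4 and 76.9 CPM in WT, at a log2 fold change of 0.06. Hars, the histidyl enzyme, had 90.1, 83.1 and 93.7 CPM in KO against 60.4, 90.2 and 81.5 CPM in WT, and Wars, the tryptophanyl enzyme, had 75.5, 86.5 and 102 CPM in KO against 69.9, 88.6 and 62.9 CPM in WT. The groups overlapped in all 3 genes. Qars, the glutaminyl enzyme, had 187, 164 and 179 CPM in KO against 153, 179 and 157 CPM in WT, also overlapping, at 0.12 ± 0.12 (SE).

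Rars and Dars were the 2 cytosolic members with negative values. Rars, the arginyl enzyme, had 106, 115 and 57.9 CPM in KO against 98.7, 104 and 85.5 CPM in WT. KO replicate 3 was the lowest of the 6 libraries, and without it the log2 fold change stood at 0.20, in place of -0.05. Dars, the aspartyl enzyme, had 169, 177 and 148 CPM in KO against 213, 192 and 179 CPM in WT. Every KO library of Dars was below every WT library, but the log2 fold change of -0.24 ± 0.12 (SE) did not pass (edgeR, adjusted p = 0.229).

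By amino acid, the 11 genes that rose serve 12 amino acids: alanine, asparagine, cysteine, glutamate, glycine, isoleucine, leucine, methionine, proline, serine, threonine and tyrosine. The other 9 serve 8: arginine, aspartate, glutamine, histidine, lysine, phenylalanine, tryptophan and valine. Every KO library was above every WT library in 14 of the 20 genes and below in 1, beside 15.7% and 14.5% of all genes tested. Summed over the 20, the level was 4747, 4970 and 4606 CPM in KO against 2750, 3152 and 2767 CPM in WT, a ratio of 1.65. The 11 alone gave 3344 ± 187 CPM in KO and 1613 ± 138 CPM in WT, and the other 9 gave 1430 ± 6.21 CPM in KO and 1277 ± 95.0 CPM in WT (SD, n = 3 each).

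**Figure D2:**
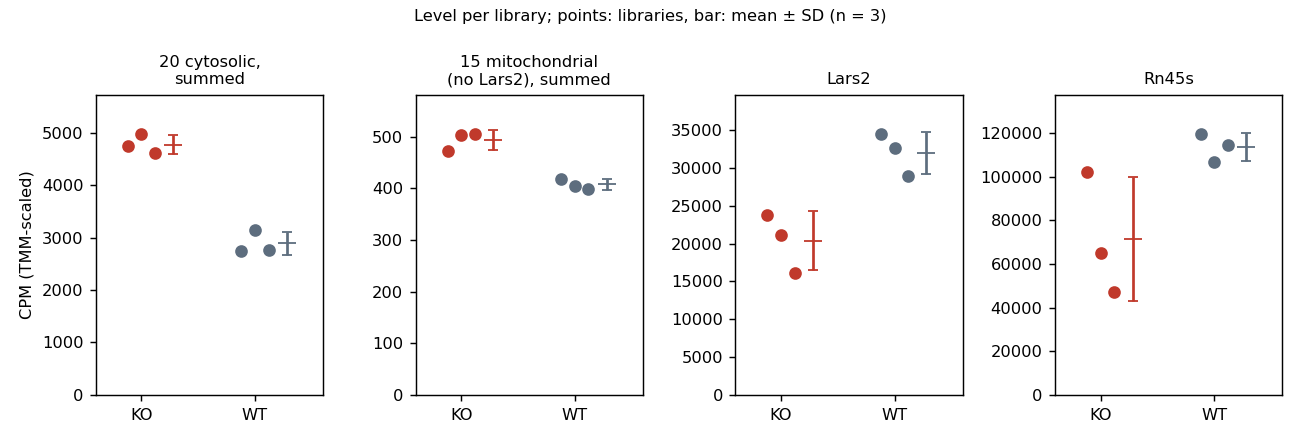
TMM-scaled CPM per library, KO left of WT, for the sum of the 20 cytosolic synthetases, the sum of the 15 mitochondrial synthetases other than Lars2, Lars2 alone and Rn45s. Points are libraries and bars are the mean ± SD of 3 libraries; the KO libraries are above the WT libraries in the first 2 panels and below them in the last 2.

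Membership of the multi-synthetase complex, a cytosolic particle in which several synthetases are held together by scaffold proteins, cut across this division. Of its 8 synthetases among the members, Eprs, Iars, Lars and Mars rose, while Dars, Kars, Qars and Rars did not pass. Of the 12 cytosolic synthetases outside it, 7 rose. Of all genes tested, 6.41% were higher and 4.99% lower, and these shares hold beside each count of this paragraph. The 3 scaffold genes of the complex had 0 called in edgeR or DESeq2, and 0 at an unadjusted p under 0.05: Aimp1 stood at 63.2 ± 3.31 CPM in KO and 64.8 ± 6.14 CPM in WT, Aimp2 at 34.8 ± 7.76 CPM and 42.5 ± 6.78 CPM, and Eef1e1 at 18.3 ± 12.1 CPM and 26.9 ± 7.21 CPM (SD, n = 3 each). Synthetases also form a pair of unrelated structural classes. Of the 9 cytosolic enzymes of class I, 5 rose, and of the 10 of class II, 5 rose, with medians of 0.91 and 0.63 on the log2 scale. Eprs joins an enzyme of each class.

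Levels between genes were compared on the authors' RPKM, which scale by length. In KO the highest cytosolic values were those of Eprs at 167 RPKM, Gars at 149 RPKM and Nars at 116 RPKM, and the lowest was that of Wars at 28.9 RPKM. In WT the highest were Dars at 104 RPKM, Eprs at 78.5 RPKM and Gars at 72.9 RPKM, and the lowest was Cars at 9.45 RPKM. Dars was in place 4 in KO with 90.6 RPKM and in place 1 in WT. Cars was in place 18 in KO with 35.9 RPKM and in place 20 in WT. Neighbours in this order often do not differ beyond their spread: in KO replicates 1 to 3 Dars had 92.0, 95.7 and 84.1 RPKM and Tars had 90.4, 93.0 and 84.2 RPKM.

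**Figure D3:**
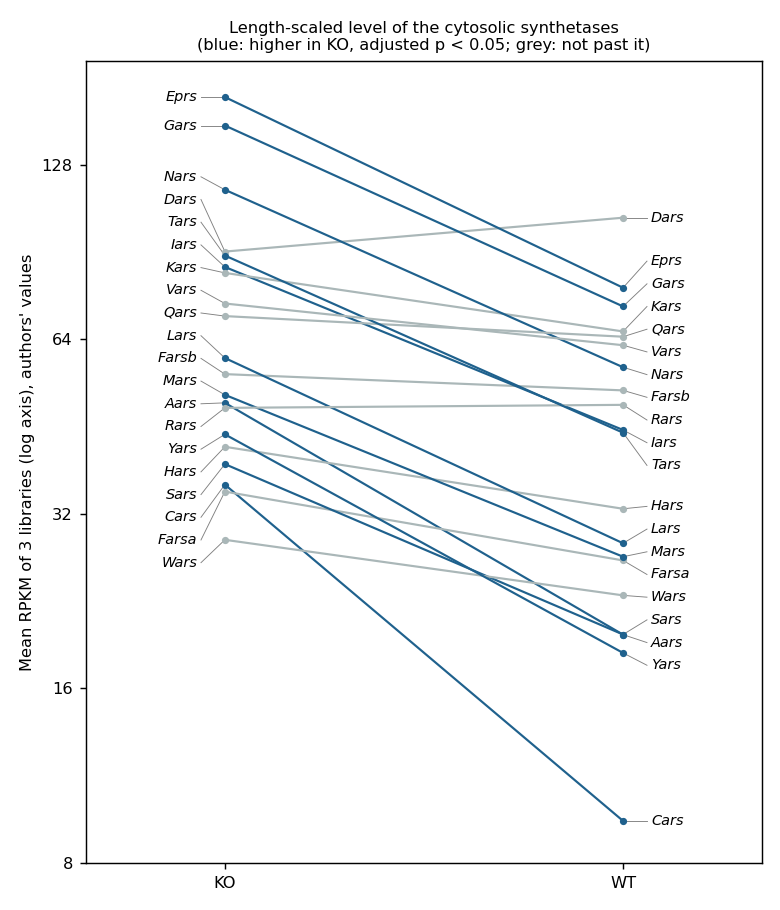
Mean RPKM of 3 libraries (authors' values, log axis) of each cytosolic synthetase in KO (left) and WT (right), joined by a line. Blue lines mark the 11 genes past the threshold in the count fit and grey lines the other 9; Eprs is highest in KO and Dars in WT.

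Of the 16 mitochondrial synthetases, Aars2 rose, Lars2 fell and 14 did not pass, with a median log2 fold change of 0.24. A count of 1 of 16 in each direction is near the share of all genes tested, 6.41% higher and 4.99% lower. Every KO library was above every WT library in 6 of the 16 and below in 2, beside 15.7% and 14.5% of all genes tested. Aars2, the mitochondrial alanyl enzyme, had 25.2, 38.3 and 35.02 CPM in KO against 13.8, 19.5 and 20.05 CPM in WT. Its KO values were all above its WT values, at a log2 fold change (± SE) of 0.88 ± 0.28 (edgeR, adjusted p = 0.0474). The call was lost without any 1 of KO replicates 2 and 3 and WT replicates 1 to 3 (edgeR, adjusted p up to 0.203), and with length and GC offsets (adjusted p = 0.144).

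Lars2, the mitochondrial leucyl enzyme, was listed with far more reads than any other synthetase and ranked 2 of the 23951 genes by summed count. It had 330176, 316898 and 204325 counts in KO against 343393, 350276 and 375480 counts in WT, or 1.70% to 2.31% of a KO library and 2.85% to 3.37% of a WT library. Rn45s, the ribosomal RNA precursor, moved with it, at 4.96% to 9.92% of a KO library and 10.5% to 11.7% of a WT library. The Lars2 row held 0.232 to 0.343 counts per Rn45s count in KO and 0.253 to 0.305 in WT. Scaled, Lars2 had 23808, 21097 and 16115 CPM in KO against 34417, 32610 and 28950 CPM in WT. Its log2 fold change was -0.65 ± 0.14 (SE; edgeR, adjusted p = 0.0202), and it lost the call without WT replicate 1 or WT replicate 2 (adjusted p = 0.0551 and 0.0995), and with length and GC offsets (adjusted p = 0.0637). Whether reads of ribosomal RNA enter the Lars2 row was not tested, so its values are not read as levels of the enzyme's mRNA.

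**Figure D4:**
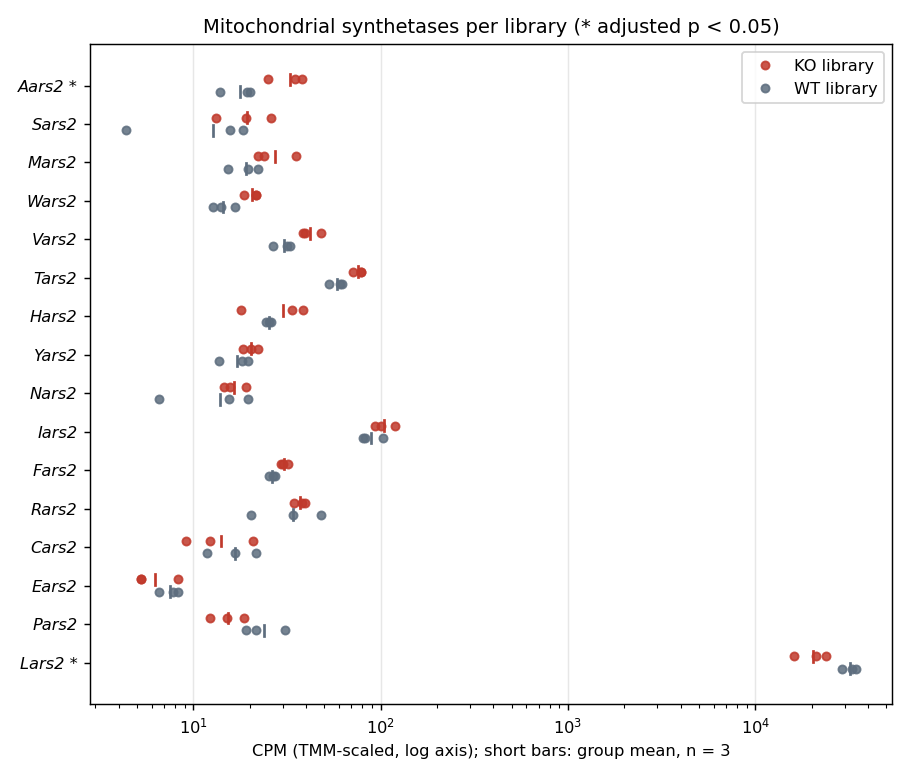
CPM (log axis) of the 16 mitochondrial synthetases in each library, drawn as for the cytosolic ones. Lars2, in the bottom row, lies at 16115 to 34417 CPM, while the other 15 lie between 4.41 and 119 CPM, and KO and WT points overlap in 8 of them.

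Without Lars2, the 15 mitochondrial synthetases summed to 472, 504 and 504 CPM in KO against 418, 405 and 398 CPM in WT, a ratio of 1.21. The 15 rest on far fewer reads than the cytosolic genes, and the highest CPM belonged to Iars2 and Tars2. Iars2, the isoleucyl enzyme, had 119, 101 and 93.3 CPM in KO against 103, 82.2 and 80.96 CPM in WT, and Tars2, the threonyl enzyme, had 78.2, 78.8 and 71.5 CPM in KO against 53.3, 62.3 and 60.8 CPM in WT. Neither passed, at log2 fold changes of 0.23 and 0.37 (edgeR, adjusted p = 0.394 and 0.171).

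Vars2, the valyl enzyme, had 38.4, 39.4 and 47.9 CPM in KO against 32.97, 26.5 and 31.6 CPM in WT, and Wars2, the tryptophanyl enzyme, had 18.6, 21.8 and 21.8 CPM in KO against 16.6, 12.8 and 14.03 CPM in WT. Their KO values, like those of Mars2, Fars2 and Tars2, were all above the WT values without passing the test. Mars2, the methionyl enzyme, had 24.01, 35.4 and 22.3 CPM in KO against 22.2, 15.4 and 19.7 CPM in WT, and Fars2, the phenylalanyl enzyme, a single chain in mitochondria, had 30.1, 29.5 and 32.1 CPM in KO against 25.6, 27.2 and 26.7 CPM in WT. Pars2, the prolyl enzyme, was the reverse case, with 18.6, 12.2 and 15.1 CPM in KO against 19.04, 30.8 and 21.6 CPM in WT, at -0.64 ± 0.32 (SE; edgeR, adjusted p = 0.223).

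The groups overlapped in the other 8 mitochondrial synthetases. Hars2, Rars2, Yars2, Nars2, Sars2, Cars2, Ears2 and Iars2 had log2 fold changes of 0.25, 0.12, 0.25, 0.24, 0.60, -0.24, -0.26 and 0.23. Several carried 1 library away from the rest. Sars2, the seryl enzyme, had 19.1, 13.2 and 26.1 CPM in KO against 4.41, 15.7 and 18.4 CPM in WT, and Nars2, the asparaginyl enzyme, had 14.6, 15.6 and 19.2 CPM in KO against 19.6, 6.61 and 15.5 CPM in WT. Hars2, the histidyl enzyme, which overlaps Hars in the annotation, had 17.95, 38.3 and 33.8 CPM in KO against 25.5, 24.5 and 25.98 CPM in WT. Rars2, the arginyl enzyme, had 34.5, 37.9 and 39.4 CPM in KO against 48.4, 34.1 and 20.4 CPM in WT.

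Cars2, the cysteinyl enzyme, had 9.16, 12.2 and 20.98 CPM in KO against 11.8, 21.6 and 16.7 CPM in WT. Ears2, which charges mitochondrial tRNAs with glutamate, had the fewest reads of the family, at 5.26, 8.32 and 5.28 CPM in KO against 8.32, 7.82 and 6.55 CPM in WT. Yars2, the tyrosyl enzyme, had 18.5, 22.2 and 20.4 CPM in KO against 13.7, 18.2 and 19.6 CPM in WT. The spread was wider than in the cytosolic genes, for a cause that was not tested: the median SD was 14.4% of the mean in KO and 17.8% in WT over the 15 genes, against 7.19% in KO and 10.3% in WT over the 20 cytosolic ones. The median count per library was 265 for the 15 and 1849 for the 20, and the SE of the log2 fold change reached 0.54 in Ears2.

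The 2 compartments could be set side by side for 16 amino acids, in 17 pairs of a cytosolic and a mitochondrial gene. The log2 fold change was larger in the cytosolic gene in 12 of the 17 pairs, or 11 of 16 without Lars2, and the median of cytosolic minus mitochondrial was 0.47. The widest gap was in cysteine, at 1.87 for Cars and -0.24 for Cars2. Proline followed among pairs without Lars2, at 1.02 for Eprs and -0.64 for Pars2, and then glutamate, at 1.02 for Eprs and -0.26 for Ears2. Alanine was the amino acid with both genes past the threshold upwards. In arginine, histidine, tryptophan and valine the mitochondrial gene had the larger value, by at most 0.26, and so had Fars2 beside Farsb, and none of these genes passed. These gaps between genes are descriptions and were not tested.

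**Figure D5:**
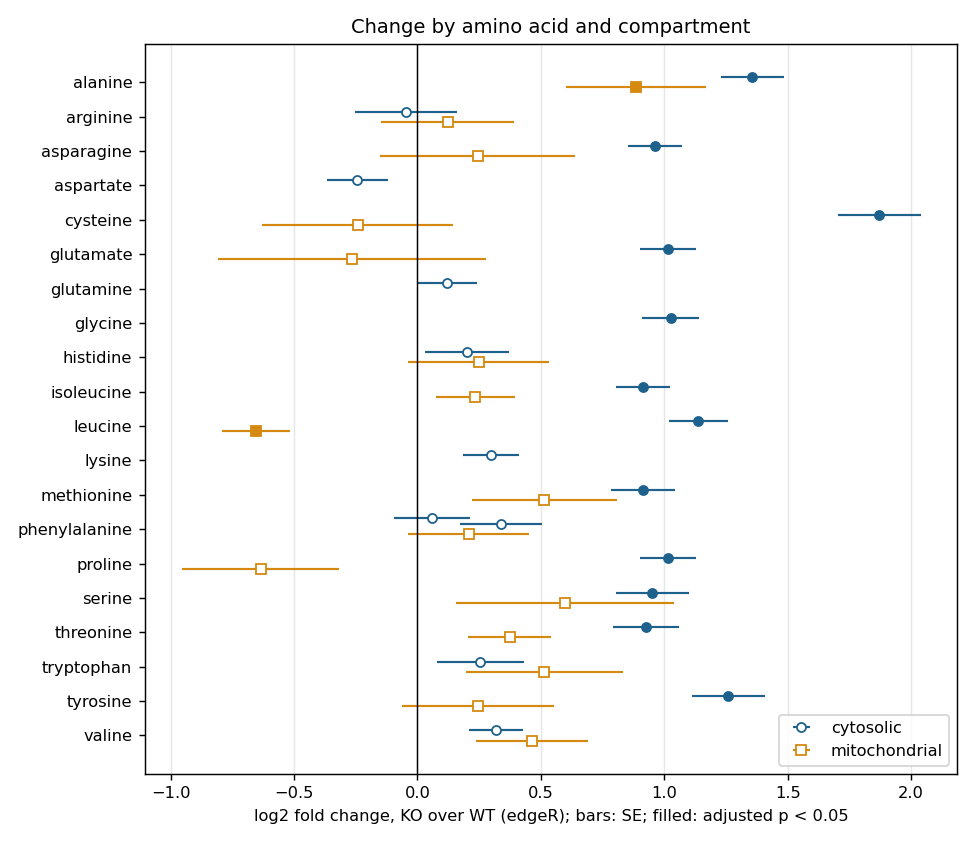
Log2 fold change of KO over WT with its SE for each synthetase, by amino acid, with cytosolic genes as blue circles and mitochondrial genes as orange squares, filled where the adjusted p was under 0.05. Eprs is drawn under both glutamate and proline, and the upper of the 2 phenylalanine circles is Farsb; filled circles lie between 0.91 and 1.87.

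On RPKM, cytosolic genes were above their mitochondrial counterparts in all 16 pairs without Lars2. The ratio lay between 1.84 and 61.7 in KO and between 1.16 and 23.4 in WT. Cysteine had the lowest ratio in WT but not in KO. Cars stood at 35.9 RPKM and Cars2 at 7.11 RPKM in KO, a ratio of 5.05, against 9.45 RPKM for Cars and 8.12 RPKM for Cars2 in WT.

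Mitochondria make glutaminyl-tRNA by amidating glutamyl-tRNA, with an enzyme of 3 subunits encoded by Qrsl1, Gatb and Gatc. Qrsl1 stood at 11.4 ± 1.76 CPM in KO and 10.1 ± 4.79 CPM in WT, Gatb, listed as Pet112, at 17.5 ± 4.62 CPM and 17.7 ± 2.73 CPM, and Gatc at 39.1 ± 3.78 CPM and 35.99 ± 7.25 CPM (SD, n = 3 each). In the list of 11 other charging and synthetase-like genes that holds these 3, 0 passed in either direction in edgeR, 1 was higher at an unadjusted p under 0.05, and DESeq2 called 1 higher. The nearest was Aarsd1, an editing protein for mischarged alanine tRNA, at 0.54 ± 0.18 (SE; edgeR, adjusted p = 0.0557).

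Other steps of the tRNA cycle were counted for context. Of 11 genes of tRNA processing and export, 4 rose and 0 fell, beside 6.41% higher and 4.99% lower of all genes tested. Xpot, the nuclear export receptor of tRNA, rose to 293 ± 32.5 CPM in KO, against 143 ± 14.0 CPM in WT (SD, n = 3 each), a log2 fold change (± SE) of 1.04 ± 0.12 (edgeR, adjusted p = 1.08e-05). Ssb, the La protein that binds new tRNA ends, rose by 0.45 on the log2 scale (edgeR, adjusted p = 0.00593). Elac2, which trims the 3′ end of tRNA precursors, rose by 0.79 (edgeR, adjusted p = 0.0111). Elac2 lost its call without KO replicate 1, KO replicate 2 or WT replicate 1 (edgeR, adjusted p up to 0.0581).

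Of 11 genes that modify mitochondrial tRNA or act in its maturation, 1 rose and 0 fell. That is near the share of all genes tested, 6.41% higher and 4.99% lower. It was Trit1, a tRNA isopentenyltransferase, at 28.3 ± 2.28 CPM in KO and 13.2 ± 4.34 CPM in WT (SD, n = 3 each; edgeR, adjusted p = 0.0280). Trit1 lost its call without KO replicate 1, 2 or 3 or WT replicate 3 (edgeR, adjusted p up to 0.120). Of 11 mitochondrial translation factors and 10 cytosolic elongation and termination factors, 0 passed in either direction in edgeR or in DESeq2. At an unadjusted p under 0.05 in edgeR, 0 of the mitochondrial factors differed and 1 of the cytosolic ones was lower. Their median log2 fold changes were 0.05 for the mitochondrial list, and less than 0.01 from 0 for the cytosolic one. Among them Eef1a1, which delivers charged tRNA to the ribosome, had a log2 fold change (± SE) of -0.20 ± 0.08, and Tufm, its mitochondrial counterpart, had -0.14 ± 0.14 (SE).

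All 6 genes of the reference list for uncharged tRNA sensing and ATF4 rose in edgeR, beside 6.41% higher of all genes tested. This list was put together with earlier results on Atf4, Asns, Trib3 and Ddit3 known. Atf4 had 348, 369.6 and 341 CPM in KO against 86.9, 103 and 85.2 CPM in WT. Eif2ak4, the gene of GCN2, rose by 0.84 ± 0.19 (SE), and its call was lost without KO replicate 2 (edgeR, adjusted p = 0.0567). Gcn1l1, the activator of GCN2 on ribosomes, rose by 0.62 ± 0.13 (SE), but did not pass once offsets for length and GC content were used (adjusted p = 0.0840). With limma on log2(RPKM + 1), Elac2, Trit1, Eif2ak4 and Gcn1l1 did not pass (adjusted p = 0.0779, 0.0537, 0.0703 and 0.0965).

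Transcript length moved with the groups and with the division of the cytosolic genes. The median longest coding transcript was 3570 nt in the 11 that rose and 2175 nt in the other 9, beside 3165 nt over all genes tested with a length. The decile of longest transcripts held 201 genes higher in KO and 52 lower in KO. The decile of shortest held 17 higher and 94 lower. With offsets for length and GC content in each library, 11 cytosolic synthetases were again called higher. All 11 calls also held without any 1 library, with a highest adjusted p of 0.00560 in edgeR, for Sars without KO replicate 2.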

How the data were processed

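Total RNA of fetal liver HSCs was made into libraries with Takara-Clontech's SMARTer Stranded Total RNA-seq kit and read on a NextSeq500, per the labels' protocols. TopHat, Cufflinks and the mm9 build are named in the submitters' processing notes, while the counter, annotation and strand setting are not given in the sources. The authors deposited raw read counts per gene symbol and RPKM values. The labels name no molecular identifiers, so PCR copies may be counted too.

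Counts were fitted with edgeR 4.0.16 in R 4.3.3 (TMM, filterByExpr, robust quasi-likelihood test, with only the group in the model), adjusted by Benjamini-Hochberg over 12204 genes with a threshold of 0.05. The SE was taken as the log2 fold change over the root of F. The fit was tested on simulated data. Alternatives were DESeq2 1.42.0, RLE scaling, no filter, a replicate block, length and GC offsets (longest coding transcript, GENCODE M21), each library left out, and limma 3.58.1 on log2(RPKM + 1) or log2(RPKM + 0.1). Replicate pairs differed by more than counting noise (chi-square per degree of freedom of 21.7 to 43.1). The members and gene lists were chosen with earlier results of these data known. All 36 members are named, and of other lists genes past the threshold, Atf4 and the genes for mitochondrial glutamine, some of which are not reported here. Aarsd1, the scaffold genes, Eef1a1 and Tufm were named after their values were seen. Promoters came from RefSeq on GRCm38.p6, matched by symbol or listed synonym, and those on chromosome 18 were left out for the synthetases.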

Additional observations from a re-analysis of the deposited data

How the results depend on the processing

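The cytosolic result kept its direction and side of the threshold in most settings: 11 higher and 0 lower in the counts as fitted, 11 to 12 higher without any 1 library, and 9 with limma on log2(RPKM + 1) without a filter, where Lars and Sars did not pass (adjusted p = 0.0561 and 0.0615). With length and GC offsets it was 11. The median log2 fold change of the 20 was 0.84 to 0.93 when a library was left out.

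The 2 mitochondrial calls were less stable. The number called higher was 0 to 1 and the number called lower 0 to 1 when a library was left out. With length and GC offsets both were 0, and with the replicate block added to the offsets 0 were higher and 1 lower. With limma 0 were higher at either pseudocount, and 0 were lower at a pseudocount of 1 with or without the filter. In a setting chosen after seeing the data, with Rn45s and Lars2 left out of the table, 0 were lower because Lars2 itself was not in it, and 11 cytosolic genes were higher. The median of the 16 was 0.21 to 0.32 when a library was left out and 0.29 with offsets. The cause was not tested.

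Signs reversed in genes near 0. When a library was left out, Rars ranged over -0.23 to 0.20, Farsb over -0.028 to 0.15, Nars2 over -0.091 to 0.57 and Rars2 over -0.15 to 0.45. Rars stood at 0.068 with offsets and 0.016 with offsets and the block.

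Over all genes, 1391 were called, 782 higher and 609 lower. This was 712 to 1263 without 1 library, with 448 to 717 higher and 264 to 546 lower. Leaving out KO replicate 2 gave 712, leaving out KO replicate 3 gave 833, and leaving out WT replicate 1 gave 980, of which 383 lower. No other omission moved these counts over 1.5 times. With limma it was 503 (318 higher, 185 lower), 492 at a pseudocount of 0.1 (316 and 176) and 166 with no filter (116 and 50). The replicate numbers are shared by the groups, which is the only link between them, and same-numbered libraries did not deviate together (Pearson's r across genes 0.02, 0.01 and -0.00343). The replicate block gave 1341 calls and the same counts for the synthetases, 11 and 0 cytosolic and 1 and 1 mitochondrial.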
